A study of Rattus norvegicus with 60 samples.

Results

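The late shift of the retinal microRNA (miR) response to ischemia-reperfusion (IR) injury was measured as the IR effect at 7d minus the IR effect at 48 h, where an IR effect is the log2 level in IR retinas minus that in sham control retinas of the same time point. It rests on 24 of the 60 arrays of the series, 6 each of IR 48 h, sham 48 h, IR 7d and sham 7d, and on all 350 rat miRs of the array, of which 159 passed the detection filter and were tested. The animals were male Long Evan's hooded rats of 250 to 300 g. In the IR groups the intraocular pressure was held at 110 mmHg for 60 min through a cannula in the anterior chamber, and sham control eyes were cannulated without the rise in pressure. Whole retinas were taken after 48 h or 7d, each rat contributed 1 array and 1 time point, and 100 ng of total RNA was labeled with Cy3 and hybridized to an Agilent rat miR array that measures 1 color. Of the miRs tested, 57 were detected on all 24 arrays.

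MicroRNAs are short RNAs that bind messenger RNAs mainly through bases 2 to 8 of their 5′ end, the seed, and lower the stability or translation of these targets. A miR precursor can yield a product from each of its arms, and older names mark the less abundant one with a star. After a pressure-induced ischemia, retinal ganglion cells and other inner retinal neurons die over days, while Müller glia and microglia become reactive. MiR-21 is widely known as a miR of reactive glia and inflammation, miR-132 and miR-212 as activity-regulated neuronal miRs, miR-124 as a general neuronal miR, and the cluster of miR-183, miR-96 and miR-182 as a photoreceptor cluster.

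For the miRs on which the results turn, the mature sequences are shown in lower case, 5′ to 3′, with the seed in capitals. They are from RefSeq, rat build GRCr8. The array gives older names without an arm, so the arm was taken from an identical name, from the order of a miR and its star form along the strand, or from distances within a miR cluster. A sequence was assigned to 172 of the 350 miRs and to 71 of the 159 tested. Of the 5 miRs called for the difference between the IR effects, 3 could be assigned, and they shared no seed with each other or with any other assigned miR among those tested.
rno-miR-21 (chr10:71902653-71902674, minus strand): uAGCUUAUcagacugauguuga
rno-miR-99b* (chr1:67350108-67350129, plus strand): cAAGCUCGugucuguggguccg
rno-miR-338 (chr10:105796345-105796367, minus strand): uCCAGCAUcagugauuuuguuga

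A second set is shown because its 4 tested members carry 1 common seed, that of miR-17, a growth-associated family encoded in several paralogous clusters.
rno-miR-20a (chr15:98588318-98588340, plus strand): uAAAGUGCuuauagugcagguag
rno-miR-20b-5p (chrX:137343239-137343261, minus strand): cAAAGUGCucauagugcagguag
rno-miR-93 (chr12:22156894-22156916, minus strand): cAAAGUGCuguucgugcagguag
rno-miR-106b (chr12:22157103-22157123, minus strand): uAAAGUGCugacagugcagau
Counted from the 5′ end, miR-20b-5p differs from miR-20a at 2 of 23 positions (U1C and U10C), and miR-93 differs from it at 4 of 23 (U1C, U10G, A11U and A13C). MiR-106b differs at 3 of the 21 positions compared (U10G, U12C and G20A). Whether the array's probes separate members this alike was not tested.

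The arrays of the 4 groups differed before any miR was compared. Brightness, each array's 75th percentile on the log2 scale before scaling, centered over the arrays, had a median of 0.82 on the sham 48 h arrays (0.20 to 1.04), -0.40 on the IR 48 h arrays (-1.83 to 0.57), 1.07 on the sham 7d arrays (0.79 to 1.48) and -1.35 on the IR 7d arrays (-2.40 to -1.13). The IR arrays were thus dimmer than the sham arrays at both times, and more so at 7d, with a difference between the IR effects of -1.39 (exact two-sided permutation test of the time labels within each treatment, p = 0.00404, adjusted p = 0.0135 over 10 tests of 2 array measures). The number of miRs detected per array was 126 to 208 in sham 48 h (median 158.5), 106 to 171 in IR 48 h (median 118), 162 to 232 in sham 7d (median 164) and 59 to 125 in IR 7d (median 97.5), for which the same exact test gave a difference of -46 (p = 0.057, adjusted p = 0.0812). After scaling, the lowest signal of a detected miR had a median of 2.41 (log2) on the sham 48 h arrays, 3.18 on the IR 48 h arrays, 1.82 on the sham 7d arrays and 5.15 on the IR 7d arrays. A log2 level of 4 lay above this median in the other 3 groups and below it in IR 7d. The lowest detected signal is not a level above which every miR is detected. MiR-410, with a mean of 5.05 in IR 48 h, was detected on 2 of 6 IR 48 h arrays, so missed miRs were not confined to IR 7d. Among the 24 arrays, IR and sham arrays never shared a slide, whereas 7d and 48 h arrays of a treatment did, and each of the 3 scan days held 2 arrays of every group. The slide and the treatment cannot be told apart within a time point, and the part of brightness in the results below was not tested beyond the values given beside them.

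**Figure D1:**
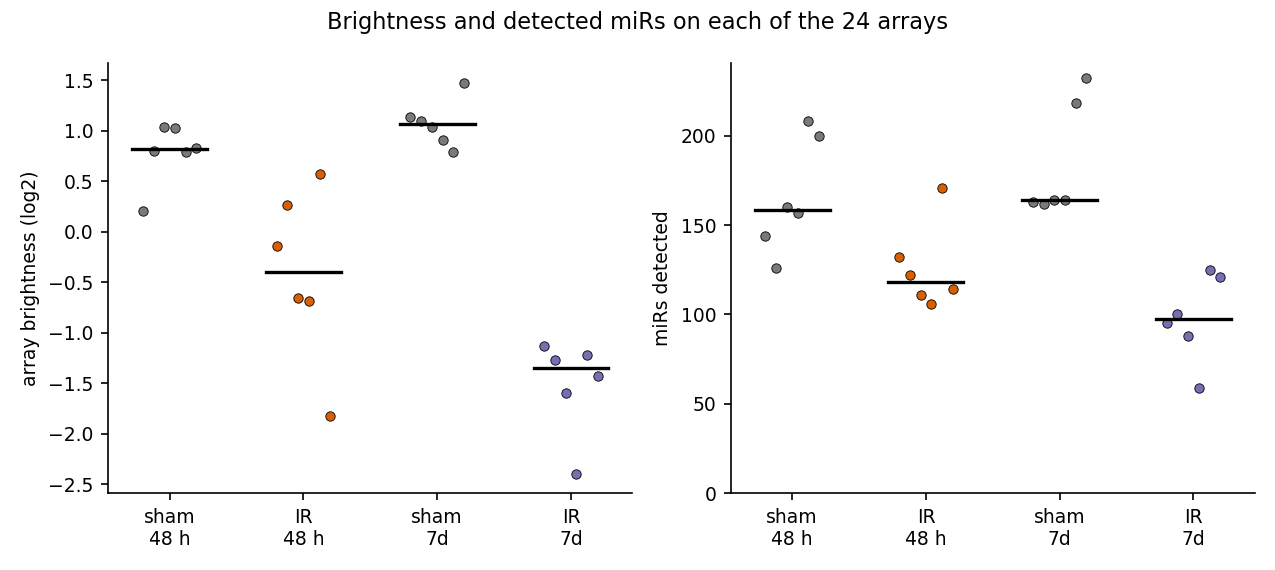
Array brightness (left, log2) and the number of miRs detected (right) on each of the 24 arrays, with 6 points and a median bar per group. All 6 IR 7d arrays lie below every sham 7d array in both measures, and IR 7d brightness spans -2.40 to -1.13.

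The IR effect mostly had the same sign at both times. Of the 159 miRs, 140 had an IR effect of the same sign at 48 h and 7d, and across them the 2 effects correlated with a Pearson r of 0.81 (n = 159 miRs, the 2 effects from different rats, which share the scaling and the brightness pattern). Both thresholds of the study's methods, 2-fold and 0.05 for the adjusted p, were applied to limma's fit. At these, 22 miRs changed at 48 h (13.8% of those tested, 16 higher or 10.1% and 6 lower or 3.77%) and 29 at 7d (18.2%, 12 higher or 7.55% and 17 lower or 10.7%). The adjusted p alone was passed by 54.7% at 48 h and 59.7% at 7d. The 6 IR and 6 sham arrays did not overlap for 15.1% of miRs at 48 h (6.29% above, 8.81% below) and 41.5% at 7d (15.1% above, 26.4% below). In total 16 miRs changed at both times (10.1% of those tested, 72.7% of the 48 h list and 55.2% of the 7d list), 11 of them higher and 5 lower, with the same sign throughout. The 7d calls changed with the setting. With brightness as a covariate 5 miRs were called at 7d, 5 higher and 0 lower. Brightness did not overlap between IR and sham arrays at 7d (-2.40 to -1.13 against 0.79 to 1.48). This covariate and the IR effect thus cannot be fully told apart at 7d. With the highest detection limit of any array as the floor, 6 were higher and 0 lower. This floor (6.50, log2) lay above the mean sham 7d levels, at most 5.97, of the 14 lower calls that no IR 7d array detected. It could thus hardly leave these calls. With normexp background correction, 95 were higher and 0 lower. In these whole-tissue samples, fewer cells of a type and less RNA per cell cannot be told apart.

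The difference itself passed limma's adjusted p threshold of 0.05 for 5 of 159 miRs (3.14%), 2 higher (1.26%) and 3 lower (1.89%), and 32 miRs had an unadjusted p under 0.05 (20.1%), 12 of them higher and 20 lower at 7d relative to 48 h. The fitted IR effect was lower at 7d for miR-21, miR-99b* and miR-551b and higher for miR-338 and miR-497, but for miR-99b*, which no IR 7d array detected, the detection limit leaves the direction unsettled. For miR-551b, which most IR 7d arrays did not detect, the IR 7d level rests largely on undetected signals. Of the 19 miRs that changed at one time only (13 at 7d, 8.18%, and 6 at 48 h, 3.77%), 18 had the same sign at the other time and only miR-99b* was called for the difference, so a change at one time only was rarely a tested difference between times. Only miR-99b* also had a difference of at least 1 on the log2 scale (0.629%), and its size is set by the floor. The median difference over all 159 miRs was -0.04. Another scaling changed the split of the calls by direction. A 75th percentile that also counts dim miRs left 0 higher and 5 lower calls. The authors' values, which differ in the floor as well as the scaling and cover 158 of the 159 miRs, left 0 higher and 7 lower. The spread behind these calls was estimated from all 60 arrays of the series. With the 24 arrays alone, only miR-99b* was called by limma (adjusted p = 0.00335), and it passed the filter only through IR 48 h, where it is high. The adjusted p there was 0.137 for miR-338 and miR-497, 0.164 for miR-21 and 0.199 for miR-551b. An exact permutation test per miR called 0 of 159 after adjustment and had 21 miRs with an unadjusted p under 0.05. Over the alternatives other than leaving out an array, direction and call both held in 14 of 19 for miR-21, 13 of 18 for miR-99b*, 10 of 18 for miR-497, 10 of 19 for miR-338 and 10 of 18 for miR-551b.

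**Figure D2:**
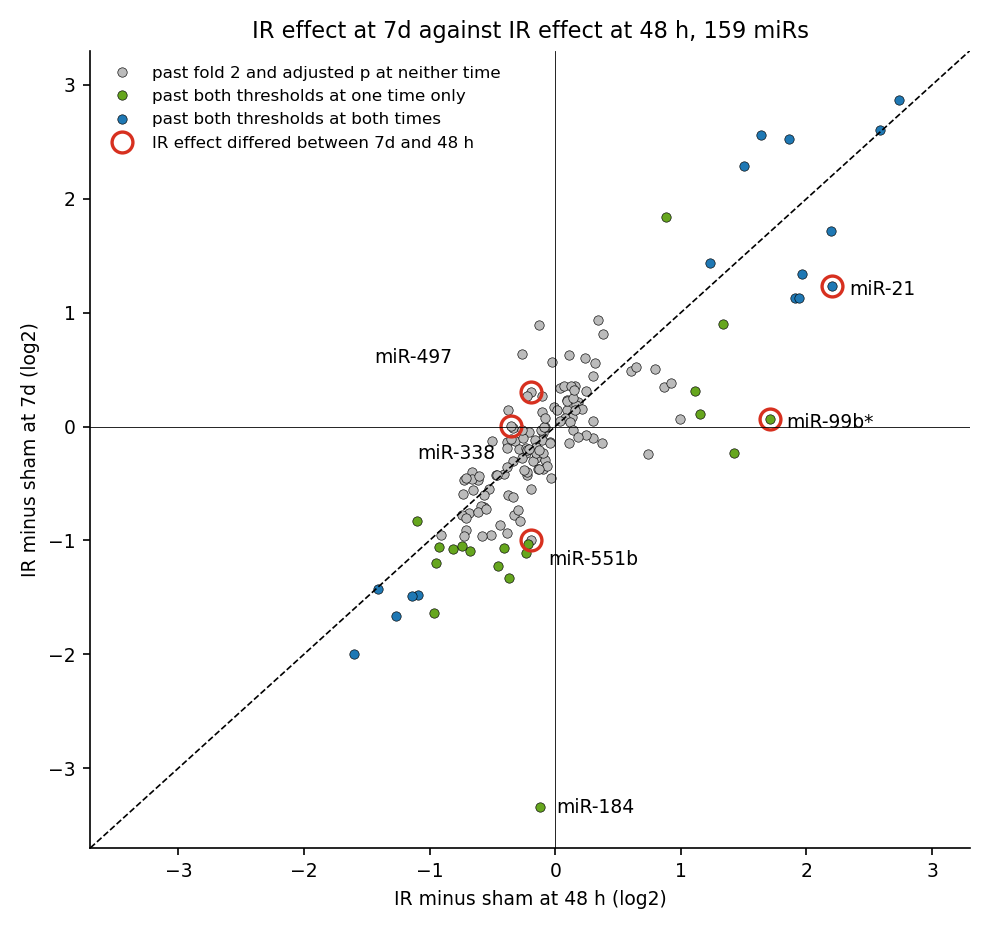
IR minus sham at 7d (y axis, log2) against IR minus sham at 48 h (x axis, log2) for the 159 miRs tested, colored by the time points at which both thresholds were passed, with red rings around the 5 miRs called for the difference between the times. Most points follow the dashed line of equal effects, miR-21 and miR-99b* lie below it, and miR-338 and miR-497 lie above it.

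MiR-21 showed a strong IR effect at both times that was smaller at 7d. The log2 level of miR-21 was 8.03 to 8.63 in sham 48 h (median 8.26), 9.02 to 11.18 in IR 48 h (median 10.65), 8.25 to 8.44 in sham 7d (median 8.38) and 9.43 to 9.78 in IR 7d (median 9.59). IR arrays lay above every sham array at each time, and 5 of the 6 IR 48 h arrays lay above every IR 7d array. The exception, IR 48 h replicate 5, was the brightest IR array (0.57) and had the lowest miR-21 level of its group (9.02). MiR-21 was 4.61-fold higher in IR at 48 h (log2 difference 2.20 ± 0.16 SE) and 2.35-fold higher at 7d (1.23 ± 0.16 SE). The difference was -0.97 (95% confidence interval -1.44 to -0.51, limma adjusted p = 0.00884), that is, a 1.96-fold smaller rise at 7d. The change lay on the IR side, where miR-21 fell by 0.89 from 48 h to 7d (limma adjusted p = 0.00013), and the sham groups differed by 0.08 (adjusted p = 0.832). Within the 3 scan days the difference was -1.11, -1.33 and -0.48, and with brightness as a covariate it was -1.12 (limma adjusted p = 0.00526). The call ended with normexp background correction (-0.41, adjusted p = 0.648) and with the mean of log2 processed signals (-0.56, adjusted p = 0.0703). MiR-21 was detected on all 24 arrays.

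Sequence relatives of miR-17, except for miR-106b, rose in IR at 48 h and did not pass both thresholds at 7d. These miRs, known from proliferating cells, gave 3 of 4 tested members higher in IR at 48 h past both thresholds and 0 of 4 at 7d, beside 10.1% and 7.55% of all tested miRs. The median difference between the effects was -0.74, against -0.04 over all 159 miRs, and 0 of 4 were called for it, although 3 had an unadjusted p under 0.05. MiR-17-5p and miR-18a, listed with this family, were detected on 13 and 2 of the 24 arrays and were not tested.

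The log2 level of miR-93 was 4.44 to 5.30 in sham 48 h (median 5.15), 5.31 to 7.01 in IR 48 h (median 6.24), 4.39 to 5.38 in sham 7d (median 4.75) and 4.37 to 5.39 in IR 7d (median 4.94). All IR 48 h arrays lay above all sham 48 h arrays, and at 7d the groups overlapped almost fully. MiR-93 was 2.22-fold higher in IR at 48 h (limma adjusted p = 6.7e-05) and 1.08-fold higher at 7d (adjusted p = 0.705). It was the sixth miR by p for the difference, at -1.04 (-1.72 to -0.37), and was not called (adjusted p = 0.0751). Within IR it fell by 1.25 from 48 h to 7d (limma adjusted p = 0.00013). It was detected on all arrays of the other 3 groups and on 2 of 6 IR 7d arrays. Its IR 7d level, and with it the 7d effect and the size of the fall within IR, thus rests largely on undetected signals.

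MiR-20a, of the miR-17 cluster, had log2 levels of 6.36 to 6.97 in sham 48 h (median 6.69), 7.28 to 8.37 in IR 48 h (median 8.11), 6.37 to 6.82 in sham 7d (median 6.53) and 7.39 to 7.497 in IR 7d (median 7.47). The IR and sham groups did not overlap at either time. Its rise was 2.53-fold at 48 h and 1.86-fold at 7d, with a difference of -0.44 (-0.75 to -0.13, limma adjusted p = 0.111), and within IR it fell by 0.57 (adjusted p = 0.00013). MiR-20b-5p had levels of 2.87 to 4.75 in sham 48 h (median 4.59), 4.68 to 6.86 in IR 48 h (median 5.69), 3.09 to 5.03 in sham 7d (median 4.02) and 2.63 to 5.16 in IR 7d (median 3.77). It was 2.68-fold higher in IR at 48 h, and groups overlapped at both times. Only 2 of 6 IR 7d arrays detected it, so its 7d level lay largely below their detection limit, and its difference of -1.65 (-2.86 to -0.44, limma adjusted p = 0.112) was not called. MiR-106b had levels of 6.28 to 7.02 in sham 48 h, 6.50 to 6.79 in IR 48 h, 6.27 to 6.52 in sham 7d and 6.50 to 6.69 in IR 7d. Its IR effects were 0.18 and 0.21, with a difference of 0.03 (-0.19 to 0.25).

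**Figure D3:**
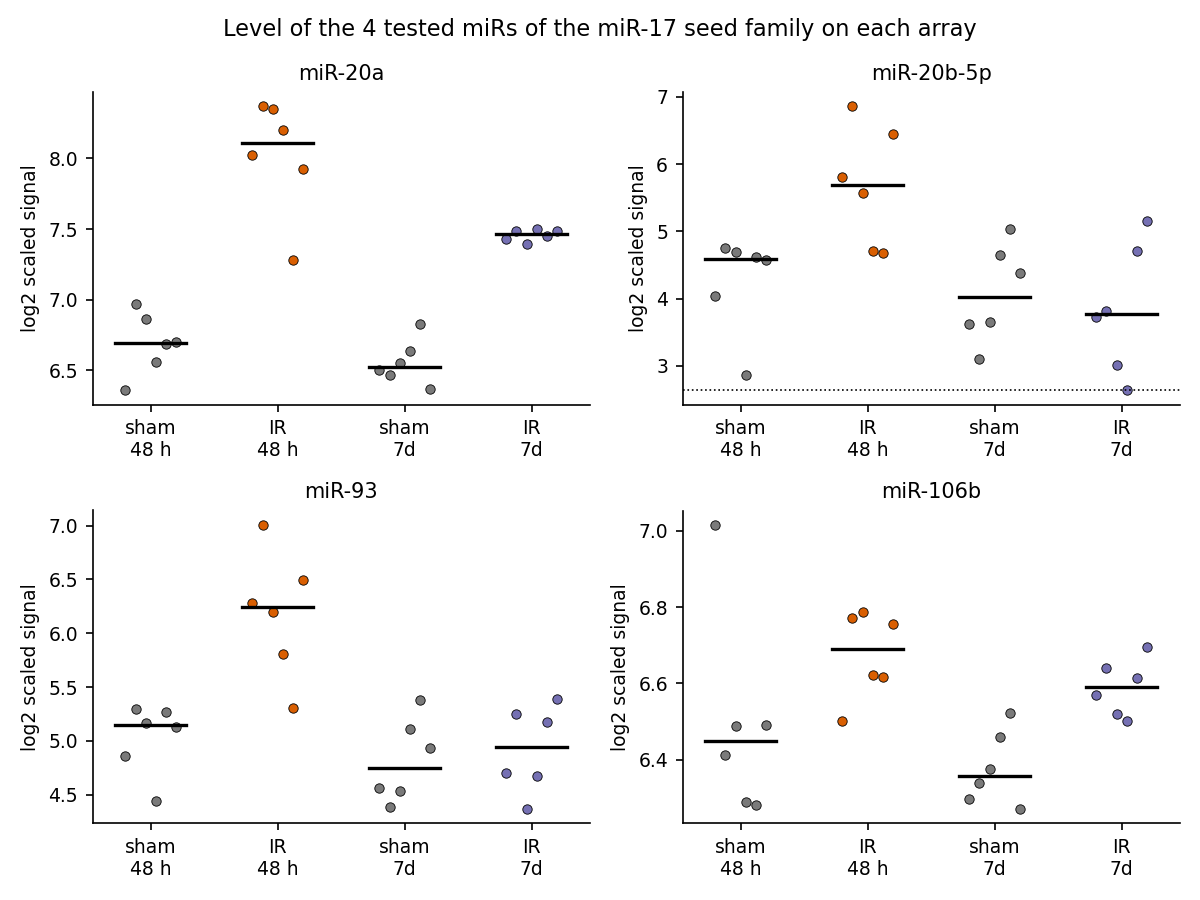
Log2 scaled signal of miR-20a, miR-20b-5p, miR-93 and miR-106b on each of the 24 arrays, with 6 points and a median bar per group and the floor as a dotted line where values reach it. The plotted signals of miR-20a, miR-20b-5p and miR-93 are highest in IR 48 h, with medians of 8.11, 5.69 and 6.24. MiR-93 and miR-20b-5p were each detected on 2 of 6 IR 7d arrays, so their points there rest largely on undetected signals.

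MiR-99b*, the 3′ arm product of the miR-99b precursor, was detected on all arrays of 1 group only, and it passed the filter through that group alone, the one where it is high. Its log2 level was 3.84 to 5.34 in IR 48 h (median 4.82), where all 6 arrays detected it, and all of them lay above every array of the other 3 groups. It was 2.63 to 3.55 in sham 48 h (median 2.85, 4 of 6 arrays detected), 2.63 to 3.02 in sham 7d (median 2.63, 4 of 6) and 2.63 to 3.41 in IR 7d (median 2.63, 0 of 6), where 2.63 is the floor. At 48 h it was 3.27-fold higher in IR (limma adjusted p = 7.7e-06). Since the filter kept it through IR 48 h alone, this p and that of the difference lend no support of their own. At 7d it was not well above background on any IR array, and no fold change is given. The mean level in IR 48 h, 4.64, lay below the mean bound of 4.90 that the IR 7d arrays allowed, so a fold change within IR cannot be given either. The fitted difference of -1.64 (-2.50 to -0.79, limma adjusted p = 0.0144) is therefore set by the floor and fixes neither a size nor a direction. With brightness as a covariate it was -1.06 (adjusted p = 0.215). With normexp background correction its sign turned (0.39, adjusted p = 0.648).

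MiR-338, known from oligodendrocytes and neurons, was lower in IR at 48 h and level with sham at 7d. Its log2 level was 7.74 to 7.89 in sham 48 h (median 7.79), 7.19 to 7.66 in IR 48 h (median 7.49), 7.73 to 7.85 in sham 7d (median 7.76) and 7.58 to 7.93 in IR 7d (median 7.79). All IR 48 h arrays lay below all sham 48 h arrays, and IR and sham overlapped at 7d. MiR-338 was 1.28-fold lower in IR at 48 h (limma adjusted p = 1.7e-05), which is under the fold change threshold, and the effect at 7d was 0.01 (adjusted p = 0.952). The difference was 0.36 (0.17 to 0.55, adjusted p = 0.0144), it lay on the IR side (0.33 from 48 h to 7d, adjusted p = 0.00025), and it was 0.52, 0.25 and 0.31 within the 3 scan days. MiR-338 was detected on all 24 arrays. Scaled to the 75th percentile over all miRs its difference was 0.31 (adjusted p = 0.161), after quantile normalization 0.16 (adjusted p = 0.441) and with brightness as a covariate 0.31 (adjusted p = 0.105), so the call ended under each of these.

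MiR-497, of the miR-16 seed group that is known for restraining the cell cycle, was higher in IR at 7d. Its log2 level was 5.11 to 5.86 in sham 48 h (median 5.28), 4.97 to 5.30 in IR 48 h (median 5.21), 5.08 to 5.28 in sham 7d (median 5.18) and 5.38 to 5.72 in IR 7d (median 5.45). All IR 7d arrays lay above all sham 7d and all IR 48 h arrays, whereas IR and sham overlapped at 48 h. MiR-497 was detected on all arrays of the other 3 groups and on 5 of 6 IR 7d arrays. It was 1.14-fold lower in IR at 48 h (limma adjusted p = 0.0475) and 1.24-fold higher at 7d (adjusted p = 0.0018). The 48 h effect of -0.20 rested largely on sham 48 h replicate 1 (5.86) and was -0.09 without it, while the difference between the effects was then 0.40 (adjusted p = 0.016). The difference was 0.50 (0.26 to 0.74, adjusted p = 0.00884), with 0.63, 0.22 and 0.66 within the scan days and 0.47 with brightness as a covariate (adjusted p = 0.0312). Scaled to the 75th percentile over all miRs it was 0.45 and missed the threshold (adjusted p = 0.0586). The 4 tested members of this seed group had a median difference of 0.08, and miR-497 was the only one called.

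MiR-551b had a lower fitted level in IR at 7d, and its fitted difference was split between IR and sham. Its log2 level was 4.26 to 5.20 in sham 48 h (median 4.95), 4.28 to 5.28 in IR 48 h (median 4.62), 5.20 to 5.55 in sham 7d (median 5.28) and 3.65 to 4.87 in IR 7d (median 4.38). Every IR 7d array lay below every sham 7d array, and the 48 h groups overlapped. All sham arrays detected it, against 3 of 6 IR 48 h and 2 of 6 IR 7d arrays, so the IR 7d level lay largely below the detection limit of its arrays. It was 1.14-fold lower in IR at 48 h (limma adjusted p = 0.343) and 1.99-fold lower at 7d (adjusted p = 9.8e-07). The difference of -0.81 (-1.27 to -0.35, adjusted p = 0.0278) was made up of -0.34 within IR (adjusted p = 0.135) and 0.47 within sham (adjusted p = 0.223), neither of which was called. The sign turned with normexp background correction (0.22) and with the mean of log2 processed signals (0.027), and the call ended with brightness as a covariate (-0.65, adjusted p = 0.205) and with slide as a block (-0.68, adjusted p = 0.0598). With the highest detection limit (6.50 on the log2 scale) as the floor no difference was left, because all its levels lie below that floor. It was the only one of the 5 whose call depended on a single array. The call ended when any of 6 single arrays was left out, namely IR 48 h replicate 5, IR 7d replicates 1 and 3, sham 48 h replicates 1 and 4 and sham 7d replicate 5 (-0.67 to -0.76, adjusted p up to 0.0945).

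**Figure D4:**
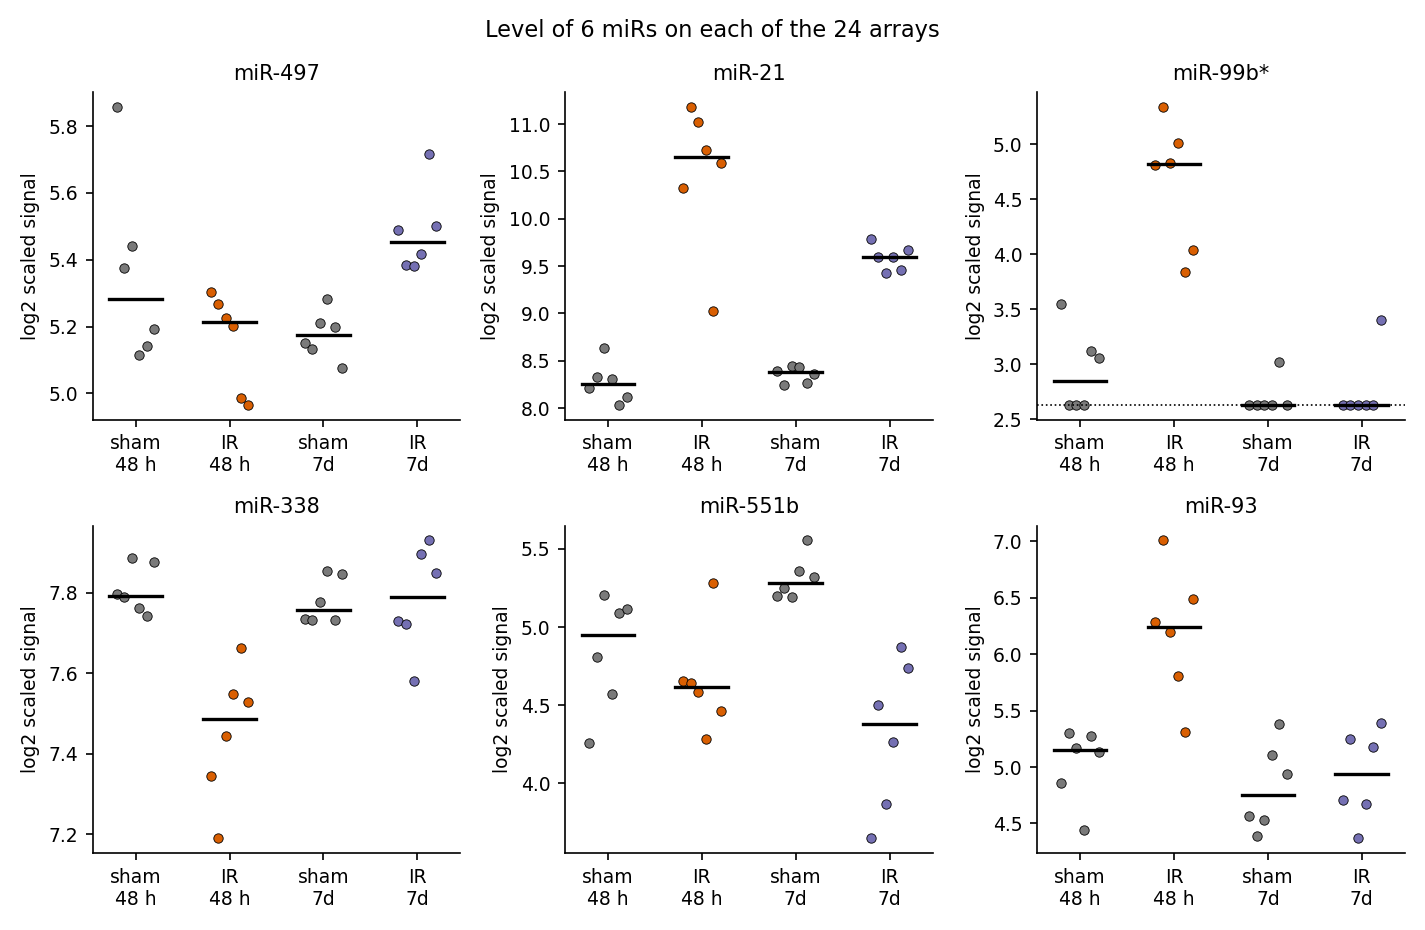
Log2 scaled signal of the 5 miRs called for the difference between the IR effects, and of miR-93, the next by p, on each of the 24 arrays, with 6 points and a median bar per group and the floor as a dotted line where values reach it. The plotted signals of miR-21, miR-99b* and miR-93 are highest in IR 48 h, and that of miR-338 is lowest there. That of miR-497 is highest in IR 7d, and that of miR-551b is lowest in IR 7d. No IR 7d array detected miR-99b*, so its order between IR 48 h and IR 7d is unsettled. Most IR 7d arrays did not detect miR-551b, so its points there rest largely on undetected signals.

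Among IR retinas alone, 29 miRs differed between 7d and 48 h by limma with the same threshold for the adjusted p (18.2%), 21 of them lower (13.2%) and 8 higher (5.03%) at 7d, against 1 among the sham retinas (0.629%). The arrays of the 2 IR groups did not overlap for 5.66% of miRs (1.26% higher and 4.4% lower at 7d). Of the 21 that were lower, 15 had a 48 h IR effect above 0. Both values use the same IR 48 h arrays, which ties them, so nothing is read from this count. Of the 29, 10 were detected on all 24 arrays and 4 were also called for the difference. The single sham call was miR-29b, a regulator of extracellular matrix genes. Its log2 level was 10.04 to 10.45 in sham 48 h (median 10.21), 10.05 to 10.29 in IR 48 h (median 10.23), 10.08 to 10.30 in IR 7d (median 10.19) and 10.51 to 10.79 in sham 7d (median 10.64), so all sham 7d arrays lay above all other arrays. It was named after its values were seen. It rose by 0.42 in sham (limma adjusted p = 0.0317), the 2 IR groups differed by 0.00, and its difference of -0.42 (-0.72 to -0.12) was not called (adjusted p = 0.111).

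Among the miRs higher in IR at both times, the effect of miR-672 and miR-466b was smaller at 7d without passing the test. MiR-672 and miR-466b, rodent miRs, were 3.83-fold and 3.76-fold higher in IR at 48 h and both 2.19-fold higher at 7d. The log2 level of miR-672 was 6.97 to 8.70 in sham 48 h, 9.31 to 10.51 in IR 48 h, 6.94 to 7.56 in sham 7d and 7.75 to 8.66 in IR 7d. That of miR-466b was 7.48 to 9.04, 9.67 to 10.92, 7.47 to 8.16 and 8.24 to 9.16 in the same order. For both, IR arrays lay above sham arrays at each time and all IR 7d arrays lay below all IR 48 h arrays, with a fall within IR of 1.41 and 1.32 (limma adjusted p = 0.0015 for each). Their sham levels were also 0.60 and 0.54 lower at 7d, which was not called (limma adjusted p = 0.413 and 0.434). The differences of -0.81 (-1.77 to 0.16) for miR-672 and -0.78 (-1.68 to 0.12) for miR-466b were not called either.

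MiR-328, miR-331 and miR-207 had differences above 0, none of them called. The log2 level of miR-328 was 6.52 to 7.53 in sham 48 h (median 6.93), 7.10 to 9.07 in IR 48 h (median 7.78), 6.80 to 7.68 in sham 7d (median 6.99) and 8.59 to 9.24 in IR 7d (median 8.93). It was 1.84-fold higher in IR at 48 h, where the groups overlapped, and 3.58-fold higher at 7d, where they did not, with a difference of 0.96 (0.21 to 1.71, limma adjusted p = 0.129). It is the 1 miR that passed both thresholds higher at 7d only. With brightness as a covariate the difference was 0.02. MiR-331 had a difference of 0.44 (-0.01 to 0.89) and miR-207 one of 0.92 (-1.12 to 2.96), and with brightness as a covariate both were below 0 (-0.06 and -0.96). For miR-207, IR 48 h replicate 5 was at the floor (2.63) while the other IR 48 h arrays were at 6.37 to 9.02, and without it the difference was 0.135.

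The miRs lower in IR at 7d were mostly below detection there. Of the 17 called lower at 7d, 14 were detected on no IR 7d array, and for only 1 of these 14, miR-184, does the detection limit allow a fold change. MiR-184, a miR of the lens and cornea as well as the retina, had log2 levels of 2.63 to 8.72 in sham 48 h (median 2.63), 2.63 to 5.58 in IR 48 h (median 3.81), 3.41 to 8.62 in sham 7d (median 5.81) and 2.63 on every IR 7d array. With the lowest detected signal of each IR 7d array as the bound, it was at least 2.17-fold lower in IR at 7d. This bound is not strict, since an undetected miR can read above the lowest detected signal of its array. For miR-184 the floored means were 2.63 in IR and 5.97 in sham (limma adjusted p = 0.00713), and it spread widely among sham arrays. Its fitted difference of -3.22 (adjusted p = 0.205) was not called, is set by the floor and ranged from -6.18 to -0.19 over the alternatives, so that no size can be given. MiR-30a* and miR-185 were detected on 6 of 6 sham arrays at each time, on 2 of 6 IR 48 h arrays and on 0 of 6 IR 7d arrays. Their fitted differences of -0.13 and 0.27 fix neither a size nor a direction, since the mean bound on the IR 7d arrays lay above the IR 48 h mean. The same holds for the neuronal miR-138 (-0.67, limma adjusted p = 0.112), whose levels were 4.12 to 5.28 in sham 48 h, 2.63 to 4.004 in IR 48 h, 4.20 to 4.65 in sham 7d and 2.63 to 3.25 in IR 7d.

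Of the activity-regulated pair, miR-132 was lower in IR at both times, and neither was called for the difference. MiR-132 had log2 levels of 6.00 to 6.18 in sham 48 h (median 6.04), 5.57 to 6.07 in IR 48 h (median 5.74), 5.85 to 6.19 in sham 7d (median 5.95) and 4.43 to 5.79 in IR 7d (median 5.30). It was 1.23-fold lower in IR at 48 h (limma adjusted p = 0.0204) and 1.66-fold lower at 7d (adjusted p = 1.7e-07), with a difference of -0.44 (-0.74 to -0.13, adjusted p = 0.111) and detection on 2 of 6 IR 7d arrays. MiR-212 had IR effects of 0.16 and 0.19 and a difference of 0.03 (-0.49 to 0.55). The p53-linked miR-34a was 1.23-fold higher in IR at 48 h (7.08 to 7.33 against 6.91 to 7.05, limma adjusted p = 0.0013) with no overlap, and 1.03-fold higher at 7d (6.78 to 7.18 against 6.74 to 7.16). Its difference was -0.25 (-0.48 to -0.03, adjusted p = 0.179), and -0.42 with brightness as a covariate (adjusted p = 0.0129). MiR-335 rose within IR by 1.03 (adjusted p = 0.0045), with 2.63 to 4.33 in IR 48 h and 4.62 to 5.35 in IR 7d, but only 1 and 2 of 6 arrays detected it. Its difference of 0.90 (0.11 to 1.69, adjusted p = 0.179) was not called, and with brightness as a covariate it was 1.57 (adjusted p = 0.00526).

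Of the markers of the main retinal cell types, only miR-338 was called for the difference. In the photoreceptor cluster, 0 of 3 miRs passed both thresholds at either time, and the differences were 0.07 for miR-183 (-0.19 to 0.32), -0.25 for miR-96 (-0.57 to 0.07) and 0.25 for miR-182 (-0.04 to 0.53). The summed log2 level of the cluster was 13.18 to 13.76 in sham 48 h, 13.68 to 13.86 in IR 48 h, 13.58 to 13.77 in sham 7d and 13.75 to 13.83 in IR 7d, and its 3 miRs, which mark retinal tissue, were detected on all 24 arrays. MiR-124 had a difference of 0.08 (-0.25 to 0.40), the pigment epithelium miR-204 one of -0.01 (-0.30 to 0.29) and the hypoxia-regulated miR-210 one of 0.04 (-0.32 to 0.39). Of 16 neuronal miRs tested, 0 were called for the difference, with a median of -0.16, against -0.04 over all miRs. Of them, 4 passed both thresholds lower at 7d and 0 at 48 h, beside 10.7% and 3.77% of all tested miRs, and all 4 were detected on no IR 7d array. Neither were miR-124*, miR-136 and miR-7b, so the list median rests partly on undetected signals. In the miR-181 family of the inner retina, 0 of 5 were called. MiR-181b was 1.42-fold lower in IR at 48 h (8.02 to 8.53 against 8.58 to 9.67, limma adjusted p = 7.4e-05) and 1.09-fold lower at 7d (8.31 to 8.74 against 8.53 to 8.78), with a difference of 0.38 (0.08 to 0.68, adjusted p = 0.129). The 9.67 was sham 48 h replicate 1, where the other sham 48 h arrays reached 8.88 at most, and without it the difference was 0.22. Without the same array the difference of miR-182 was 0.07. Of 12 glial miRs, 1 was called higher, miR-338, with a list median of 0.02. In the imprinted cluster of chromosome 6, 17 of 21 tested miRs had a difference below 0, beside 88 of all 159, with a median of -0.25 and 0 called. Of its 21 members, 9 passed both thresholds at 7d (2 higher, 7 lower) and 4 at 48 h (2 higher, 2 lower), beside 18.2% and 13.8% of all tested miRs. Of the 7 lower at 7d, 6 were detected on no IR 7d array. Further members, such as miR-136, miR-329 and miR-431, were not detected there either, as were 39 of all 159 miRs tested. For such members the sign of the difference is not fixed, so the count below 0 and the median give the cluster no direction.

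Markers of cells from outside the neural retina were followed as well. Of 11 leukocyte and inflammation miRs on the array, 4 were tested and only miR-21 was called. The leukocyte-defining miR-142-3p and miR-142-5p were detected on none of the 24 arrays, miR-223 on 2 of 6 in each group, miR-146a on 1 array and miR-150 on no IR 7d array. The summed log2 level of this list was 9.69 to 10.34 in sham 48 h, 10.09 to 11.55 in IR 48 h, 9.68 to 9.92 in sham 7d and 10.43 to 10.66 in IR 7d, and thus followed miR-21. Of 6 muscle miRs, miR-206 was the only one tested. Its log2 level was 5.47 to 7.66 in sham 48 h, 7.59 to 9.23 in IR 48 h, 5.23 to 6.05 in sham 7d and 6.54 to 7.32 in IR 7d, with IR effects of 3.90-fold and 2.52-fold (limma adjusted p = 0.0001 and 0.0058) and a difference of -0.63 (-1.82 to 0.57). MiR-133a and miR-208 were detected on none of the 24 arrays and miR-1 on 1 array in each of 3 groups. Of the red blood cell miRs, miR-451 was detected on 1 of the 24 arrays and miR-144 on none.

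**Figure D5:**
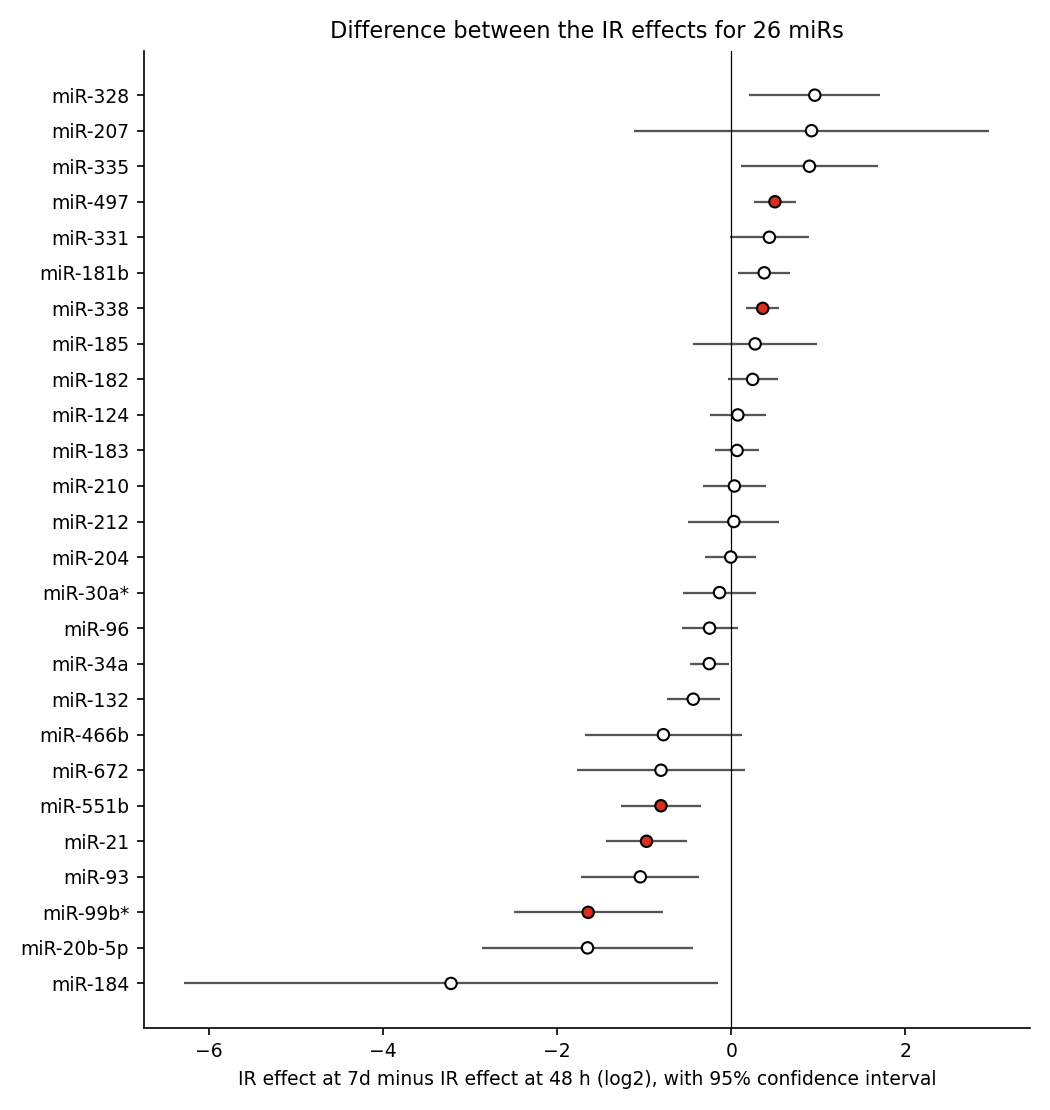
IR effect at 7d minus IR effect at 48 h (x axis, log2) for the 26 named miRs, with 95% confidence intervals from limma and filled points for the 5 that were called. MiR-184 has the widest interval (-6.28 to -0.15) around a value set by the floor, and miR-204, miR-212, miR-210 and miR-183 lie close to 0.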

How the data were processed

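Total retinal RNA of 60 rats was hybridized to 60 arrays, 1 per rat. Per the file headers, Agilent Feature Extraction 9.5.3.1 subtracted background and the authors deposited, for each of 350 rat miRs, the summed intensity over its probes (938 in all), not normalized between arrays, with probe positions on rn4. A further deposited table, with log2 values that differ from the raw ones, floored at 1 signal unit, by 1 constant per array, served as an alternative. Groups came from the labels.

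Arrays were brought to a common 75th percentile, computed on the 57 miRs that every one of the 60 arrays detected, floored at 6.20 signal units (2.63 on the log2 scale) and log2 transformed. The 159 miRs for which at least 1 of the 10 groups had 6 detecting arrays were tested with limma 3.58.1 (R 4.3.3), 1 mean per group over all 60 arrays, with Benjamini-Hochberg adjustment within each contrast. The IR against sham calls also needed a log2 difference of at least 1. The difference between the IR effects and the contrasts within IR and within sham needed an adjusted p of at most 0.05 alone. Where a group never detected a miR, its level there is a bound, set per array by the lowest signal among detected miRs. Where the miR's own signal was higher, that signal was used. Scripts were tested on simulated data. The number of arrays limits the precision.

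Named miRs were those called for the difference, with the next by p up to 6, the largest differences of either sign among miRs detected on all 24 arrays, among miRs called at one time only and at both, and a set of retinal miRs and list members. The miRs, the lists and the rule were chosen with earlier results of these data known. The alternatives changed the scaling, background correction, probe summary, floor, filter, covariates, blocks, test, deposited table and each array in turn.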

Additional observations from a re-analysis of the deposited data

Results flagged for a closer look

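The IR effect differed between 7d and 48 h by limma for miR-497 (0.50), miR-21 (-0.97), miR-99b* (-1.64), miR-338 (0.36) and miR-551b (-0.81), and by the exact permutation test for array brightness (-1.39).

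Of 112 groups of 6 arrays checked, 15 held an array set far apart from the rest of its group, where chance gives about 1 in 20. Among the called miRs these were miR-497 in IR 7d replicate 5 (highest, 5.72), miR-99b* in IR 7d replicate 6 (highest, 3.41) and sham 7d replicate 5 (highest, 3.02), and miR-551b in IR 48 h replicate 5 (highest, 5.28). In both miR-99b* groups the median was the floor (2.63), and the rate of about 1 in 20 does not hold for values tied there. Sham 48 h replicate 1 stood apart 5 times, with the highest miR-181b (9.67), miR-182 (10.82) and miR-210 (9.85), the lowest miR-183 (12.07) and the lowest brightness (0.20). The others were miR-328 in sham 7d replicate 5 (highest, 7.68), miR-20b-5p in sham 48 h replicate 4 (lowest, 2.87), miR-34a in IR 48 h replicate 5 (lowest, 7.08), miR-96 in IR 7d replicate 6 (highest, 12.43), miR-335 in IR 48 h replicate 6 (lowest, 2.63, the floor) and brightness in IR 7d replicate 4 (lowest, -2.40).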

How the results depend on the processing

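The 5 calls of the difference became 13 with quantile normalization, 126 without normalization, 44 with the mean of log2 processed signals, 0 with normexp, 2 with the highest detection limit as floor, 2 among miRs detected on all 24 arrays, 1 with the 24 arrays alone, 8 with slide as a random block, 0 by exact permutation (21 at an unadjusted p under 0.05) and 1 with a difference of at least 1 in addition. Leaving out 1 array gave 4 to 9 calls.

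The 29 calls at 7d became 47 with quantile normalization, 151 without normalization, 95 with normexp, 6 with the highest limit, 4 on all 24 arrays, 5 with brightness as a covariate and 48 in the authors' table (27 to 35 without 1 array). The 22 calls at 48 h became 121 without normalization, 39 with mean log2 signals, 63 with normexp, 34 with a floor of 1 unit, 5 with the highest limit, 4 on all 24 arrays and 35 in the authors' table (18 to 28 without 1 array). The 29 within IR became 120 without normalization, 96 with mean log2 signals, 8 with normexp, 16 with the highest limit, 10 on all 24 arrays and 14 by exact permutation (25 to 40 without 1 array). The 1 call within sham became 2 with the percentile over all miRs, quantile normalization or the highest limit, and 0 without normalization, with mean log2 signals, normexp, slide as a block or exact permutation (0 to 2 without 1 array). The causes were not tested.

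The sign of the difference turned without normalization, which moved the median of all differences to -1.31, for miR-497 (-0.89), miR-338 (-1.03), miR-181b (-1.01), miR-331 (-0.95), miR-328 (-0.43), miR-185 (-1.20), miR-207 (-0.37), miR-212 (-1.36), miR-183 (-1.32), miR-182 (-1.14), miR-124 (-1.31), miR-335 (-0.79) and miR-210 (-1.35). It turned with normexp (median 0.32) for miR-99b* (0.39), miR-551b (0.22), miR-93 (0.16), miR-20b-5p (0.0963), miR-30a* (0.40), miR-132 (0.27), miR-34a (0.21) and miR-204 (0.13). With mean log2 signals (median 0.37) it turned for miR-551b (0.027), miR-30a* (0.51), miR-132 (0.11), miR-34a (0.12), miR-96 (0.14) and miR-204 (0.40). With brightness as a covariate it turned for miR-331 (-0.064), miR-30a* (0.065), miR-207 (-0.96), miR-183 (-0.029), miR-124 (-0.12), miR-204 (0.020) and miR-210 (-0.11), and with quantile normalization for miR-185 (-0.39), miR-212 (-0.032), miR-204 (0.051) and miR-210 (-0.063). In the authors' table it turned for miR-212 (-0.086), miR-183 (-0.049), miR-124 (-0.040) and miR-210 (-0.080), with the percentile over all miRs for miR-212 (-0.017) and miR-210 (-0.011), with slide as a block for miR-30a* (0.0026) and miR-204 (0.00547), and as a random block for miR-204 (0.0021). Without 1 array the range was -0.23 to 0.0058 for miR-30a*, -0.13 to 0.19 for miR-212, -0.065 to 0.16 for miR-124, -0.085 to 0.12 for miR-204 and -0.12 to 0.10 for miR-210.

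Of 36 pairs of same-numbered arrays, 20 had a correlation over 0.1, and 7 of 24 arrays correlated best with their own number. Since not every pair passed 0.1, the numbers were not taken to pair the arrays, although they follow the scan day. The replicate block was fitted to the 24 arrays alone, where miR-99b* was the only call without a block. With it 2 differences were called by limma, miR-99b* and miR-29b. The other 4 calls of the main fit, absent from the 24 arrays without a block as well, were not called (adjusted p = 0.0876 for each). With scan as a block all 5 were kept among 6 calls.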
